A study of Mus musculus with 6 samples.

Results

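The genes described here carry out antigen presentation on major histocompatibility complex (MHC) class II molecules. They are 10 rows of the deposited count table, taken by name as genes of this pathway, out of 15861 genes in all. All 10 were found and all passed the filter on low counts, so each was tested among 10926 genes. RNA came from germinal centre B cells, sorted as B220+ GL7+ FAS+, of C57BL/6 mice described as littermates, with 1 mouse per library. The WT group held 3 mice with floxed Lsd1 alleles (Lsd1 f/f) and no Cre. The KO group held 3 mice with the same floxed alleles and 1 copy of a Cre allele named Cgamma-cre, so both groups carried Lsd1 f/f and only the KO group carried Cre. The labels name neither the age of the mice nor an immunisation. By its name the Cre is tied to the immunoglobulin gamma constant region, and cells that had not expressed it would keep the floxed alleles intact.

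MHC class II molecules are pairs of an alpha and a beta chain that show peptides from engulfed antigen to CD4+ T cells. In the germinal centre, B cells that present more antigen compete better for T cell help. New chains are folded around the invariant chain, encoded by Cd74. Cathepsin S then trims the invariant chain in the endosome, and the exchanger H2-DM replaces its last fragment with antigen peptide, while H2-O holds H2-DM back. CIITA, encoded by Ciita, is the coactivator that switches the chain genes on by docking on a protein complex at a shared promoter module. C57BL/6 mice carry a defective E alpha gene, so they make I-A but no surface I-E.

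The shared promoter module can be read in the genome sequence. It holds an X box and, further towards the gene, a Y box with an inverted CCAAT that binds NF-Y. In the RefSeq promoter table (GRCm38.p6, the same assembly as mm10) entries of 7 of the 10 members were searched. An entry runs from 250 bases before to 50 after a start. None was searched for H2-Ab1, Cd74 and Ciita, and for Cd74 this does not show that the table lacks an entry. The letters TGATTGG, as the core of a Y box, were found on the gene's strand in 5 of these 7, with the first letter between 92 and 45 bases before the start. In 4 of the 5 the letters GCAAC, which occur in many X boxes, lay 28 to 31 bases further from the gene. Those 5 stretches, from 130 to 30 bases before the start, are shown to let a reader see this spacing, with both sets of letters in capitals.
H2-Aa (chr17:34287853-34287953, minus strand): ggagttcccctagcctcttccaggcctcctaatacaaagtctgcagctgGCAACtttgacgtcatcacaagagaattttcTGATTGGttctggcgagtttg
H2-Eb1 (chr17:34305737-34305837, plus strand): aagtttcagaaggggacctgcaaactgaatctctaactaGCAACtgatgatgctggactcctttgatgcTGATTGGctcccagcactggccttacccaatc
H2-Oa (chr17:34092249-34092349, plus strand): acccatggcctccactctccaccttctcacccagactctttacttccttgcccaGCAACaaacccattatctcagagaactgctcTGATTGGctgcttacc
H2-Ob (chr17:34238775-34238875, plus strand): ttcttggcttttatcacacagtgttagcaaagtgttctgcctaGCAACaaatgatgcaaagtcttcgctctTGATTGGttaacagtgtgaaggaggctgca
H2-DMb2 (chr17:34145119-34145219, plus strand): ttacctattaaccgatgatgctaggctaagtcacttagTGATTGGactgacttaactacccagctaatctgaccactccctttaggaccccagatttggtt
Over all 32851 promoters of the table, TGATTGG occurred on either strand in 7.82% and GCAAC in 35.2%. Both in this order, with first letters 20 to 40 bases apart, occurred in 0.204%. TGATTGG was absent from both entries of H2-DMa and from the entry of Ctss. The letters were chosen after these sequences had been read, and a match is a description of the sequence and no measure of binding.

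The libraries held 3.39 to 5.52 M counts in WT and 12.3 to 14.3 M counts in KO, so depth and genotype cannot be told apart. Counts of the members ran from 432, for H2-Oa in WT 1, to 116627, for Cd74 in KO 2. Counting error alone was at most 4.81% of a value, against a spread between WT mice of 10.1% to 28.5%. Levels are given as counts per 1000000 (CPM) on library sizes scaled by TMM, a method that lines up the bulk of genes. Kdm1a, the present name of Lsd1, was at 134, 85.2 and 92.6 CPM in WT 1, 2 and 3 and at 81.9, 33.0 and 21.8 in KO 1, 2 and 3. Its log2 fold change was -1.19 (SE 0.50, edgeR adjusted p = 0.393), and -1.93 (edgeR adjusted p = 0.0169) without KO 1. KO 1 had the highest Kdm1a level of the KO group, so leaving it out enlarges the fall by selection on the tested value. The fit of Kdm1a without KO 1 is therefore no independent support for a loss. The library labelled KO 1 lay close to WT 2 in its Kdm1a level, so results are also given without it. Of the 12 markers of germinal centre B cells, Bcl6 was present at 207 to 320 CPM. Mef2b, also on that marker list, was at 0.456 CPM or less in every library. The summed level of the 12 markers was 8533 to 13360 CPM in WT against 7074 to 9861 in KO. None of the 11 tested passed. Of these, 10 had a fitted log2 fold change below 0, against 48.7% of all genes, with a median of -0.25. Ptprc was the 1 above 0, at 0.35. At an edgeR unadjusted p under 0.05 stood 3, Cd79b (-0.67), Gcsam (-0.60) and Cd79a (-0.48), against 12.6% of all genes. For 2, Cd79a and Cd79b, every KO library was below every WT library, against 7.95% of all genes.

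None of the 10 class II presentation genes passed the test between the groups. Single values ran from 113 CPM for H2-Oa to 8937 CPM for Cd74, and the 3 chain genes lay at 2546 to 5678 CPM. Of all genes tested, 0.0824% passed at an adjusted p under 0.05, 0.0732% higher and 0.00915% lower in KO (edgeR quasi-likelihood test, Benjamini-Hochberg adjustment over 10926 genes). At an unadjusted p under 0.05 stood 2 of the 10 members, against 12.6% of all genes. Both were lower in KO, where 5.5% of all genes were lower and 7.1% higher by that threshold. That count of 2 was 0 without WT 3, without KO 1 and with a macrophage covariate. It was 1 without KO 3 and with a length and GC trend removed, and 3 without WT 2, without KO 2 and by DESeq2. By DESeq2 and by limma-voom 0 of the 10 passed as well, where 1.12% and 0.0183% of all genes did. The fitted log2 fold change of KO against WT was below 0 for 9 of the 10, as it was for 48.7% of all genes. Its median over the members was -0.21, against 0.01 over all genes tested. The median of the germinal centre B cell markers, -0.25, lay close to that of the members, and their part in the members' values was not tested. Without KO 1 the median was -0.26 and the count of members that passed was again 0.

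**Figure D1:**
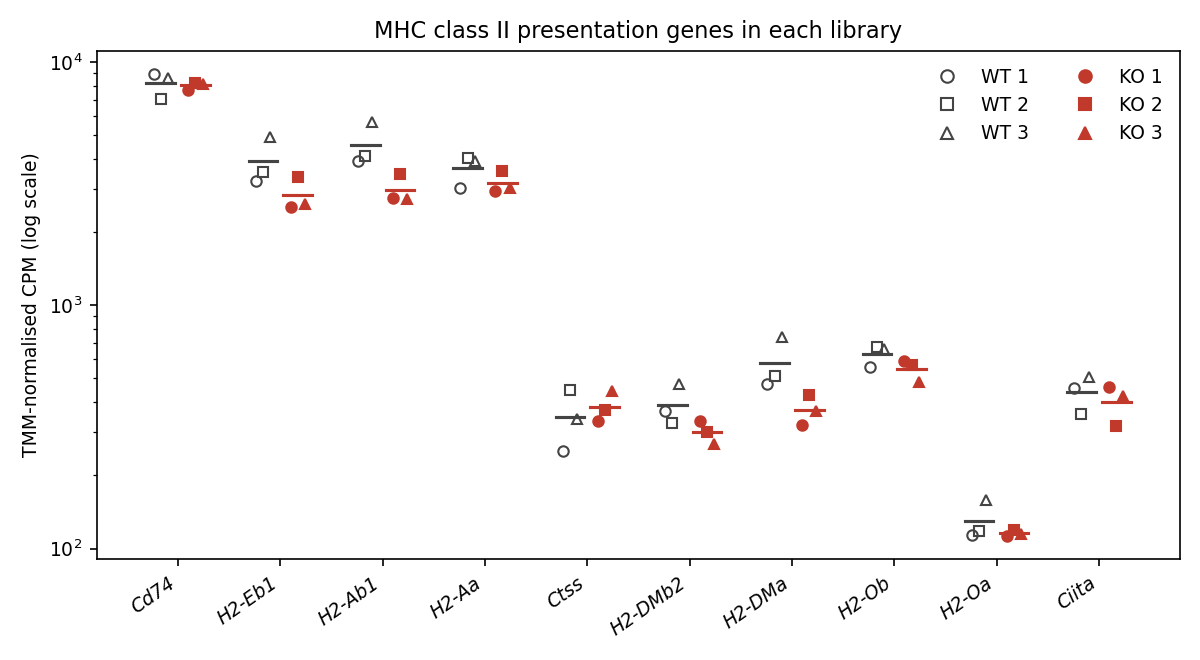
TMM-normalised CPM on a log axis (vertical) of each member in every library, with open grey symbols for WT, filled red symbols for KO and a bar at the mean of each group (n = 3). Genes are ordered by WT level per kilobase. The KO libraries of H2-Ab1 and H2-DMa all lie below the WT libraries, and the groups overlap for the other 8.

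The chains of the class II molecule differed in how far the groups lay apart. H2-Ab1, the I-A beta chain (chromosome 17, 34257689 to 34269419, plus strand, mm10), was read at 3902, 4110 and 5678 CPM in WT 1 to 3 and at 2766, 3454 and 2728 in KO 1 to 3. Every KO library was below every WT library, and WT 3 was the highest of all. The log2 fold change was -0.61 (SE 0.23, edgeR adjusted p = 0.318), a fold of 0.654 with a 95% interval of 0.459 to 0.932. H2-Aa, the I-A alpha chain that pairs with it (chromosome 17, 34282744 to 34287823, minus strand), was read at 3039, 4038 and 3915 CPM in WT against 2935, 3566 and 3024 in KO. WT 1 lay among the KO libraries, so the groups overlapped. The log2 fold change was -0.21 (SE 0.22, edgeR adjusted p = 0.742), with an interval of the fold from 0.623 to 1.21.

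H2-Eb1, the I-E beta chain (chromosome 17, 34305867 to 34316674, plus strand), was read at 3247, 3541 and 4933 CPM in WT against 2546, 3356 and 2611 in KO. The groups overlapped through KO 2, which lay just above WT 1. Its log2 fold change was -0.46 (SE 0.24, edgeR adjusted p = 0.448), and -0.26 without WT 3 or -0.19 with the length and GC trend removed. H2-Ea-ps, the defective E alpha gene of this strain, had 0 counts in each WT library and 2, 14 and 3 in KO, against 12363 or more counts of H2-Eb1 in every library. The beta chain of I-E was thus abundant as RNA where its partner was nearly unread. H2-Eb2, a further beta chain gene beside it, was at 164, 255 and 169 CPM in WT against 162, 232 and 239 in KO (log2 fold change 0.10, SE 0.24).

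Cd74, the invariant chain (chromosome 18, 60803848 to 60812652, plus strand), was the most or second most abundant transcript by count in all 6 libraries. It was read at 8937, 7070 and 8610 CPM in WT against 7662, 8231 and 8156 in KO. The 3 KO libraries lay within the WT range. The log2 fold change was -0.03 (SE 0.22, edgeR adjusted p = 0.969), and the interval of the fold ran from 0.70 to 1.36. Its sign depended on the processing: it was 0.08 with library size alone and 0.32 after each library had been corrected for its trend with exon length and GC content.

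Together H2-Aa, H2-Ab1, H2-Eb1 and Cd74 took up 1.74% to 2.19% of all counts in WT and 1.70% to 1.84% in KO. Their sum was 19098, 18741 and 23112 CPM in WT against 15885, 18590 and 16498 in KO. Every KO library was below every WT library, though KO 2 and WT 2 differed by little. The mean log2 difference was -0.25, a fold of 0.838, with an exact two-sided permutation p = 0.1, the smallest that 3 against 3 libraries allow. On the library total in place of TMM the log2 difference was -0.14 (exact permutation p = 0.3) and the groups overlapped.

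**Figure D2:**
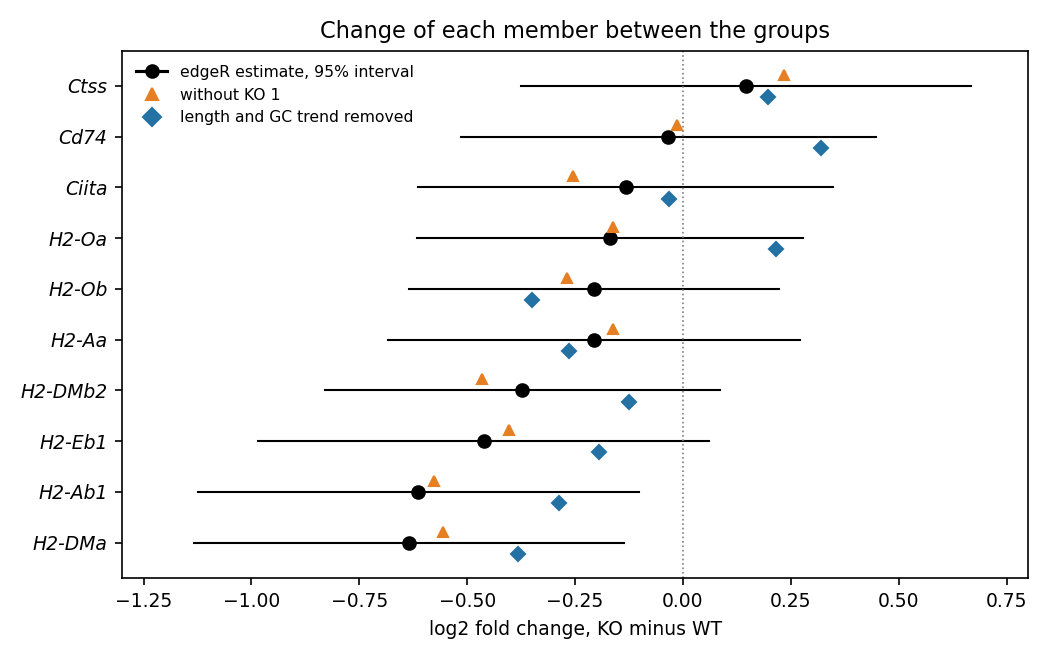
Log2 fold change of KO against WT (horizontal) for each member, as the edgeR estimate with its 95% interval (black), the estimate without KO 1 (orange triangles) and the estimate with a length and GC trend removed (blue diamonds). The intervals of H2-Ab1 and H2-DMa do not reach 0 before adjustment for the number of genes. Removing the trend moved H2-Ab1 from -0.61 to -0.29 and put Cd74 and H2-Oa above 0.

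The peptide exchanger H2-DM and its inhibitor H2-O are each made of an alpha and a beta chain. H2-DMa (chromosome 17, 34119541 to 34139101, plus strand) was read at 475, 513 and 743 CPM in WT against 321, 426 and 368 in KO, without overlap. Its log2 fold change was -0.64 (SE 0.23, edgeR adjusted p = 0.304), the lowest of the members, and the interval of the fold ran from 0.456 to 0.91. H2-DMb2, a beta chain of H2-DM (chromosome 17, 34143307 to 34151555, plus strand), was read at 366, 327 and 475 CPM in WT against 333, 300 and 269 in KO. The groups overlapped through KO 1 and WT 2, and the log2 fold change was -0.37 (SE 0.21, edgeR adjusted p = 0.486). It was -0.21 without WT 3 and -0.13 with the length and GC trend removed. Its near-identical neighbour H2-DMb1 was at 90.3, 85.8 and 87.0 CPM in WT against 114, 78.7 and 80.0 in KO. H2-DMb1 held 15.5% to 20.8% of the counts of both beta chain genes in WT and 20.8% to 25.5% in KO. Reads of the pair can be assigned to either gene, so the split is uncertain.

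Across all genes tested, the KO libraries lay wholly below the WT libraries for 7.95% and wholly above them for 10%. Taking both directions, the groups did not overlap for 18% of all genes. Among the members KO lay wholly below WT for H2-Ab1 and H2-DMa, 2 of 10, and in no member did KO lie wholly above. Without KO 1 their log2 fold changes were -0.58 and -0.56. Without WT 3, the library with the highest level of both, they were -0.43 and -0.42. With the length and GC trend removed they were -0.29 and -0.38. Neither passed under any of the 18 alternatives, where the adjusted p of H2-Ab1 ran from 0.118 (DESeq2) to 1 and that of H2-DMa from 0.133 to 1.

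H2-Oa, the alpha chain of H2-O (chromosome 17, 34092340 to 34095234, plus strand), was read at 114, 118 and 159 CPM in WT against 113, 120 and 115 in KO. All but WT 3 lay within a narrow band. The log2 fold change was -0.17 (SE 0.20, edgeR adjusted p = 0.785) and turned to 0.22 with the length and GC trend removed. H2-Ob, the beta chain (chromosome 17, 34238903 to 34254414, plus strand), was read at 558, 677 and 658 CPM in WT against 588, 570 and 483 in KO. WT 1 lay below 2 of the KO libraries, and the log2 fold change was -0.21 (SE 0.20, edgeR adjusted p = 0.71).

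The remaining members were the genes of cathepsin S and CIITA. Ctss, the cathepsin S gene (chromosome 3, 95526786 to 95556403, plus strand), was read at 251, 448 and 340 CPM in WT against 334, 373 and 444 in KO. The lowest and the highest library were both WT. It was the member with the one fitted log2 fold change above 0, at 0.15 (SE 0.24, edgeR adjusted p = 0.851), which was -0.05 without WT 1. Ciita (chromosome 16, 10480059 to 10528418, plus strand) was read at 458, 357 and 505 CPM in WT against 459, 319 and 425 in KO. KO 1 lay at the level of WT 1 and the groups overlapped. The log2 fold change was -0.13 (SE 0.22, edgeR adjusted p = 0.856), and 0.01 without KO 2. Without WT 2 the log2 fold change of Ciita was -0.265. The unadjusted interval of its fold in the main fit ran from 0.653 to 1.27. The part of Ciita in the levels of the other members was not tested.

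Per length of merged exons, the order of the members' levels was the same in both groups. Cd74 led with 4887 ± 594 CPM per kilobase in WT and 4774 ± 184 in KO (SD, n = 3 each). H2-Eb1 followed with 2010 ± 463 and 1460 ± 232, and H2-Ab1 with 1777 ± 378 and 1162 ± 159, a gap smaller than the spread between mice in WT. H2-Aa was at 965 ± 143 and 836 ± 90 CPM per kilobase, below both beta chains by more than this spread in WT. Ctss, H2-DMb2 and H2-DMa formed the next group, at 167 to 255 CPM per kilobase in WT. Ctss and H2-DMb2 differed by less than the spread between mice. H2-Ob and H2-Oa followed at 117 and 92.5 CPM per kilobase, and Ciita was lowest at 46.1 ± 8.0. The annotation used for the lengths may not be that of the counts, so levels between genes are approximate. The order also depends on the merged lengths, 3798 bp for H2-Aa, 2568 for H2-Ab1 and 1944 for H2-Eb1. Before division by length, mean levels of H2-Aa, H2-Ab1 and H2-Eb1 were 3664, 4563 and 3907 CPM in WT. In KO they were 3175, 2983 and 2838 CPM, with H2-Aa the highest of these chains.

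A ratio of 2 genes within a library does not depend on how libraries are scaled. The count of H2-Aa over that of its partner H2-Ab1 was 0.779, 0.983 and 0.690 in WT and 1.06, 1.03 and 1.11 in KO. Every KO library was above every WT library, by 1.32-fold on average (exact two-sided permutation p = 0.1, the smallest possible). H2-Aa has a GC content of 48.9% and H2-Ab1 one of 57.7%. With the length and GC trend removed the ratio was 0.942, 0.906 and 0.915 in WT and 0.955, 0.908 and 0.946 in KO, the groups overlapped, and the mean log2 difference went from 0.40 to 0.02 (exact permutation p = 0.4). This correction of the ratios was chosen after the data were seen. The trend was fitted in each library without regard to group, so it can also take up a group difference that follows length or GC. The cause of the shift was not tested.

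H2-O over H2-DM, the inhibitor over its target as the summed counts of both chains, was 0.798, 0.946 and 0.671 in WT and 1.07, 0.949 and 0.939 in KO. WT 2 lay between KO 2 and KO 3, so the groups overlapped. The mean log2 difference was 0.31 (exact two-sided permutation p = 0.2) and 0.25 with H2-DMb1 counted as well. It was 0.01 with the length and GC trend removed. Cd74 over the 3 chain genes was 0.877, 0.605 and 0.593 in WT and 0.929, 0.793 and 0.975 in KO, with overlap between WT 1 and KO 2. Its mean log2 difference was 0.40 (exact two-sided permutation p = 0.2), and 0.56 with the trend removed (exact permutation p = 0.2). The 3 ratios therefore moved differently under that correction: the first 2 came close to equal groups and that of the invariant chain did not.

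**Figure D3:**
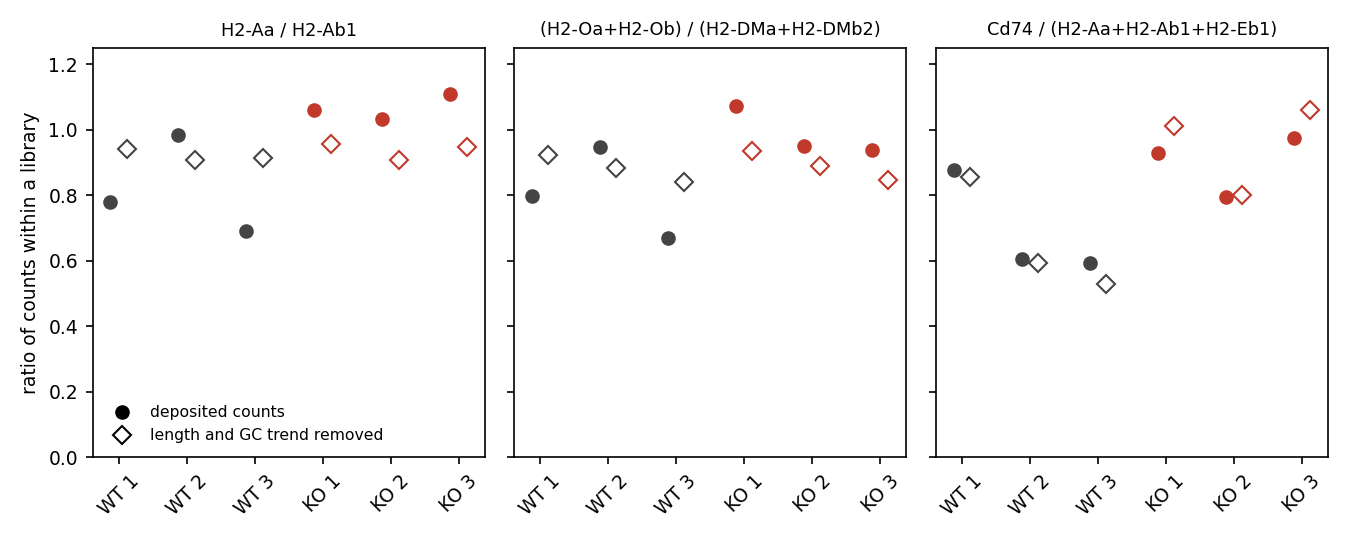
Ratio of counts within each library (vertical, from 0) for H2-Aa over H2-Ab1, H2-O over H2-DM and Cd74 over the chain genes. Filled circles are the deposited counts and open diamonds are counts with the length and GC trend removed, with WT in grey and KO in red. The first ratio is 1.03 to 1.11 in KO and at most 0.983 in WT before the correction, and 0.906 to 0.955 in both groups after it.

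The members did not vary as one block between mice. All 10 had their highest library in the WT group, as 57.2% of all genes did, and for 6 of the 10 it was WT 3, against 17.8% of all genes. KO 1 was the lowest library for 4 members and KO 3 for 3. The mean centred log2 CPM of H2-Aa, H2-Ab1, H2-Eb1 and Cd74 served as a profile of the chains over the 6 libraries. As a description with no test, H2-DMa followed it with a Pearson r of 0.985, H2-Oa with 0.853, H2-DMb2 with 0.80 and H2-Ob with 0.687. Ciita had an r of 0.138 and Ctss one of -0.15. Cd74, although part of the profile, had an r of only 0.272 with it. Among 8303 other genes 6.08% had an r of at least 0.9, so an r of that size is not rare with 6 libraries. An r at least as high as that of H2-DMa was found in 0.253% of them. The share was 9.11% for the r of H2-Oa, 12.1% for H2-DMb2 and 18.0% for H2-Ob. Among the 5 genes most like the profile, with r from 0.993 to 0.997, were Zc3hc1, Dhps, Rnh1 and Rplp2. Rplp2, a ribosomal stalk protein gene, was at 1669, 1872 and 2597 CPM in WT against 1133, 1684 and 1121 in KO, high in WT 3 like H2-Ab1.

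Macrophages also express class II genes, and their markers differed between libraries. The 20 macrophage markers summed to 1073, 2411 and 4372 CPM in WT 1 to 3 and to 698, 796 and 4880 in KO 1 to 3. All 20 were in the table, and C1qb, a complement gene of macrophages, ran from 14.8 CPM in KO 1 to 421 in WT 3. H2-Ab1 was highest in WT 3, where the sum of the 20 markers was 4372. It was lowest and nearly level in KO 3 and KO 1, at 2728 and 2766 CPM, where the sum was 4880 and 698. Of the sum, Apoe alone made up 427 CPM in KO 1 and 742 in KO 3. With the mean marker level as a covariate the log2 fold change was -0.59 for H2-Ab1 and -0.56 for H2-DMa, and 0 of 10 members passed. Without WT 3 and KO 3, a choice made after the data were seen, the members' median was -0.12 and 0 passed, with H2-Ab1 at -0.37 and H2-DMa at -0.41. The sum of 10 dendritic cell markers was 96.9, 188 and 259 CPM in WT against 138, 178 and 388 in KO, and of these Xcr1, Clec9a, Siglech, Zbtb46, Cd209a and Clec4a4 were at 1.56 CPM or less in all libraries. Flt3, on the same list, was at 57.8 to 73.7 CPM in WT against 86.7 to 145 in KO. Sirpa, also on it, was at 37.3, 109 and 180 CPM in WT against 20.8, 30.3 and 243 in KO. It was the largest part of the sum in WT 3 and KO 3, where the macrophage markers were highest as well. Itgax was at 0.788, 1.96 and 4.99 CPM in WT against 28.1, 0.847 and 7.86 in KO. The 7 T cell markers in the table summed to 193 to 264 CPM in WT against 144 to 196 in KO, nearly all of it Lck. Markers of naive B cells summed to 143 to 176 CPM in WT against 437, 209 and 256 in KO, and those of plasma cells to 1555 to 2751 and 1893 to 2558. Markers of follicular dendritic cells summed to 133 CPM in WT 1 and to 6.84 to 10.4 in the other 5 libraries. In WT 1 nearly all of it was Clu, at 126 CPM, and Cxcl13 was at 0. The part of these cells in the class II levels was otherwise not tested, and in sorted bulk RNA fewer cells of a type and less RNA per cell cannot be told apart.

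**Figure D4:**
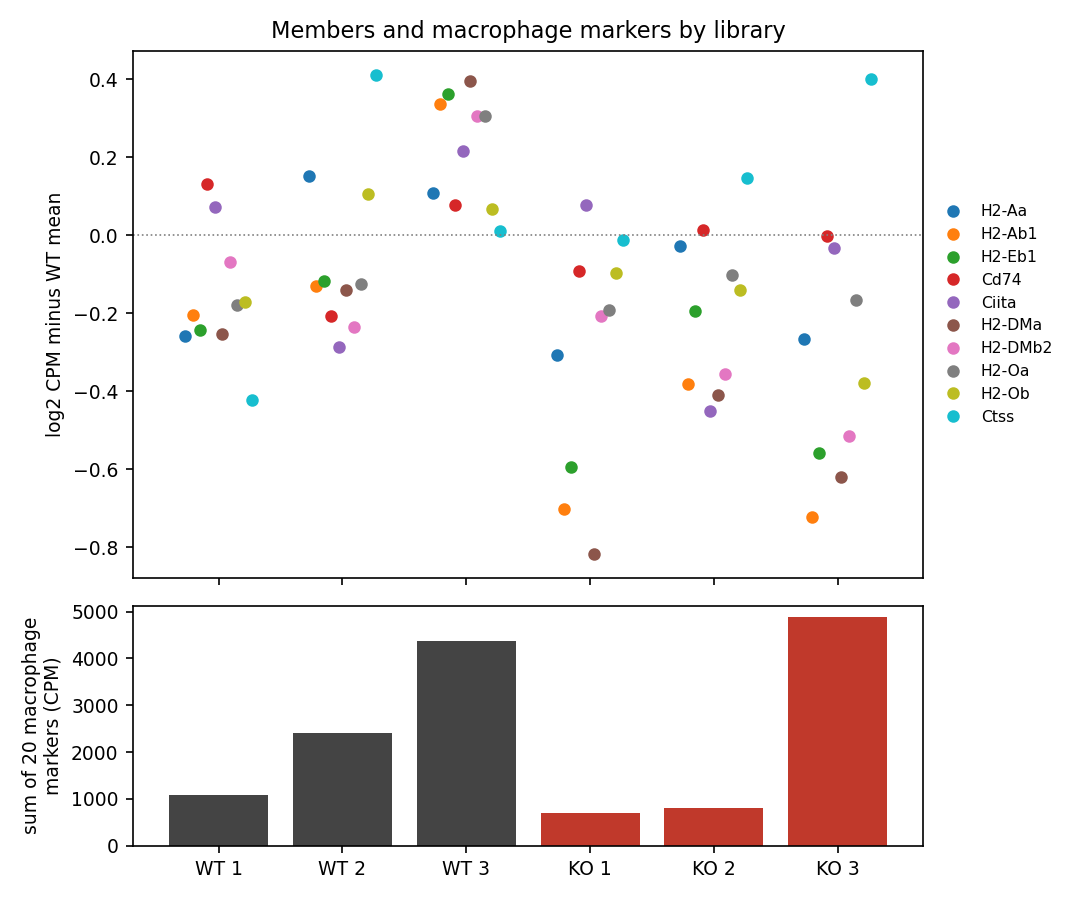
Upper panel: log2 CPM of each member minus its WT mean (vertical) in the 6 libraries, 1 colour per gene. Lower panel: summed CPM of the 20 macrophage markers in the same libraries, from 698 in KO 1 to 4880 in KO 3. H2-Ab1, H2-Eb1 and H2-DMa lie lowest in KO 1 and KO 3.

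The rest of the pathway was read from lists of named genes, and no tested member of any of them passed the edgeR test over all genes. At an unadjusted p under 0.05 the count was 3 of 9 for the regulators of Ciita (Irf4, Prdm1 and Spi1) and 0 for each of the other 4 lists, against 12.6% of all genes. Of all genes 48.7% had a fitted value below 0, the background for the signs within the lists. Of 11 genes of lysosomal processing, 9 had a fitted log2 fold change below 0, with a median of -0.44. Their summed level was 2349, 3147 and 4451 CPM in WT against 2047, 2389 and 3828 in KO, highest in WT 3 and KO 3 like the macrophage markers. The lowest fold change was that of Ctsl, the cathepsin L gene, read at 22.3, 10.8 and 17.5 CPM in WT against 3.72, 3.25 and 19.1 in KO. KO 3 stood far above the other KO libraries, and without it the log2 fold change of Ctsl was -2.29 and passed (edgeR adjusted p = 0.0489), against -0.95 with all libraries. The highest was that of Sppl2a, a membrane protease that clears the remnant of the invariant chain, at 0.56 (SE 0.28, edgeR adjusted p = 0.439). It was 0.27 without KO 3 and 0.86 without WT 2. Sppl2a was read at 54.1, 95.8 and 59.9 CPM in WT against 85.5, 85.3 and 140 in KO.

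Of the 7 genes of the complex that binds the shared promoter module, 4 were below 0, with a median of -0.06. Rfx5, which encodes the large subunit of the X box factor RFX, was read at 95.9, 76.2 and 70.5 CPM in WT against 110, 78.3 and 96.9 in KO (log2 fold change 0.23, SE 0.21). Rfxank, a further subunit of RFX, was at 37.0, 28.9 and 29.0 CPM in WT against 22.9, 23.5 and 23.3 in KO. Its KO libraries lay closely together and below every WT library, and the log2 fold change was -0.44 (SE 0.22, edgeR adjusted p = 0.429). Exons of Rfxank, Rfx5 and Ctsl overlap genes on the other strand, those of Rfxank over 33.8% of their length, and the strand setting of the counts is unknown here.

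Of the 9 regulators of Ciita, 6 were above 0, with a median of 0.30. Irf4 encodes a transcription factor of activated B cells and plasma cells, with levels of 46.8, 30.5 and 34.3 CPM in WT against 104, 49.3 and 85.5 in KO. The groups did not overlap, and the log2 fold change was 1.10 (SE 0.29, edgeR adjusted p = 0.213). It passed in 1 of the alternatives, the fit with no filter (edgeR adjusted p = 0.0436). Prdm1, named here after its values were seen, encodes Blimp-1, which represses Ciita in plasma cells. It was low, at 4.20, 3.13 and 1.56 CPM in WT against 26.9, 3.18 and 14.3 in KO, and the groups overlapped through KO 2 (log2 fold change 2.30, SE 0.77, edgeR adjusted p = 0.305). Spi1, which encodes PU.1, a factor of B cells and of macrophages, was at 216, 142 and 242 CPM in WT against 95.6, 172 and 126 in KO (log2 fold change -0.61, SE 0.27, edgeR adjusted p = 0.384). Class II turnover was read from March1, the ubiquitin ligase that removes class II molecules from the surface, March8 and Cd83, which protects them from it. The fitted log2 difference was -0.18 (SE 0.34) for March1, -0.25 (SE 0.36) for March8 and -0.19 (SE 0.21) for Cd83. March1 and Cd83 overlapped between the groups, with March1 at 113, 276 and 152 CPM in WT against 109, 192 and 177 in KO, and Cd83 at 337, 378 and 420 in WT and 274, 325 and 396 in KO.

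In the genome, 7 of the 10 members lie within a stretch of 249.1 kb on chromosome 17, between the start of H2-Oa and the end of H2-Eb2. The order along it is H2-Oa, H2-DMa, H2-DMb2, H2-Ob, H2-Ab1, H2-Aa and H2-Eb1. Between H2-DMb1 and H2-Ob lie 4 genes of class I antigen processing, the immunoproteasome subunits Psmb9 and Psmb8 and the peptide transporter subunits Tap1 and Tap2. Their log2 fold changes were -0.12, -0.28, 0.02 and -0.05 (edgeR adjusted p of 0.618 or more), and that of Brd2, between H2-Oa and H2-DMa, was -0.10. Of direct neighbours, H2-Ab1 stood at -0.61 and H2-Aa at -0.21. Exons of H2-Oa overlap an antisense gene over 22.8% of their length and those of H2-DMa overlap Brd2 on the other strand over 10.4%. The strand setting of the counts is not given in the sources used here, so reads of these pairs cannot be told apart.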

How the data were processed

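Polyadenylated RNA of 6 mice was read, 3 per group, with groups and replicate numbers from the sample titles. The deposited table holds the authors' raw counts of reads by gene. The submitters' processing notes name mm10, CASAVA, featureCounts 1.5.2 and STAR 2.5.2. Strand setting, annotation and the handling of multiply matching reads were not given in the sources used here. Members and gene lists were chosen with earlier results of these data known, so no pattern shown before counts as independent support.

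All genes were fitted in R 4.3.3 by edgeR 4.0.16 (filterByExpr, TMM, robust quasi-likelihood fit, two-sided, Benjamini-Hochberg over 10926 genes, threshold 0.05). Standard errors follow from the F statistic, and intervals are at 95%, unadjusted. Sums and ratios were tested by exact permutation over libraries. Lengths, GC content and coordinates came from GENCODE vM21, which held the symbols of 98.4% of tested genes. The trend on both was a spline with 4 degrees of freedom each, fitted per library. Alternatives were other scalings, filters, DESeq2 1.42.0, limma-voom 3.58.1, a replicate block, each library left out, thinning to equal depth, a macrophage covariate and removal of the trend. The tests across genes were also run on simulated counts. No library pair of a group looked like a repeat of 1 library (chi-square per degree of freedom 14.4 to 50.9).

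The rule for names took all members, Kdm1a, the other class II chains, the highest and lowest of each other list with mean log2 CPM no lower than 3, and the 5 genes most like the chain profile. Prdm1, cell markers, March8 and genes of the locus were named beyond it. Not every gene it took is reported here.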

Additional observations from a re-analysis of the deposited data

How the results depend on the processing

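The count of members that passed was 0 under all 18 alternatives, and their median log2 fold change stayed below 0, from -0.32 without WT 1 to -0.09 with library size alone, a scaling that moved the median of all genes from 0.01 to 0.13. Relative to all genes that median was -0.22 both with TMM and with library size alone, -0.325 without WT 1, -0.158 without WT 3 and -0.0824 without WT 3 and KO 3. The count over all genes was 9, and 18 with library size alone, 93 with no filter, 122 by DESeq2, 2 by limma-voom, 44 with the macrophage covariate, 18 with the length and GC trend removed, 1 without WT 3 and KO 3 together, and 1 to 24 with 1 library left out. With counts thinned to equal depth 12 genes and 0 members passed. The members' median was then -0.208, with H2-Ab1 at -0.616 and H2-DMa at -0.61. Thinning evens out the number of counts alone. With the replicate block 21 genes and 0 members passed. Same-numbered libraries had correlations of 0.341, -0.05 and 0.443 in their deviations from the group means, so the block was kept as an alternative only. The first and last of these were the highest of the 9 values, while WT 2 correlated best with KO 3. Signs turned as follows; the cause was not tested. Cd74 was 0.0796 with library size alone, 0.00948 without WT 1 and 0.321 with the trend removed, and H2-Oa was 0.215 with the trend removed. Ctss was -0.0501 without WT 1 and Ciita 0.0139 without KO 2. H2-Eb2 was -0.0171 without WT 1, -0.00573 without KO 3, -0.0261 with the trend removed and -0.0976 without WT 3 and KO 3. March1 was 0.269 without WT 2 and 0.0339 without KO 1, and H2-DMb1 was -0.152 without KO 1 and -0.00936 with the macrophage covariate. With 1 library left out, the lowest or highest value at the other end was -0.131 for Cd74, -0.265 for Ciita, 0.376 for Ctss, 0.152 for H2-DMb1, 0.34 for H2-Eb2 and -0.428 for March1. Kdm1a, at -1.19 with all libraries, passed in 1 of 18 alternatives, without KO 1 (log2 fold change -1.93, edgeR adjusted p = 0.0169), and was -0.878 without KO 3. KO 1 had the highest Kdm1a level of the KO group, so the pass without it is no independent support. With 1 library left out, the log2 difference ran from -0.321 to -0.158 for the summed class II level, from 0.286 to 0.542 for H2-Aa over H2-Ab1, from 0.181 to 0.429 for H2-O over H2-DM and from 0.298 to 0.581 for Cd74 over the chains.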
